A study of Oncorhynchus mykiss with 9 samples.

Results

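Glycosyltransferases are the enzymes that move a sugar from an activated donor onto a protein, a lipid or a growing glycan. They were followed in splenic IgM+ B cells of rainbow trout as 246 genes, out of 46585 genes in the count tables, of which 31691 passed a read minimum (5 or more reads in any library). A gene was a member when it passed that minimum and had a protein description naming a galactosyl-, galactosaminyl-, glucosaminyl-, fucosyl-, sialyl-, mannosyl-, glucosyl- or xylosyltransferase, with the subunits of the oligosaccharyltransferase left out. The words alone matched 359 genes, of which 113 fell under the read minimum and 63 of those had no read in any library. At the limit, 8 members had a highest count of exactly 5 and 9 matches outside had a highest count of 4. For example, a C1GALT1-like gene (GSONMG00005027001) was inside with 5 reads, all in control replicate 2. An alpha-galactosyltransferase gene (GSONMG00048391001) was outside with 7 reads over the 9 libraries, at most 4 in any of them (control replicate 3).

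Spleen leukocytes from healthy female trout of 50 to 70 g were cultured for 24 h in medium alone (control), with TNP-KLH or with TNP-LPS, and IgM+ B cells were then sorted from the cultures, so other leukocytes were present during the exposure. TNP, or trinitrophenyl, is a hapten. Coupled to KLH, a protein of molluscs, it serves as a model thymus-dependent antigen, whereas coupled to LPS, of the bacterial outer membrane, it serves as a model thymus-independent antigen. Each of the 3 groups held 3 libraries, fish age was not given in the sources used here, and the antigen dose is 5 µg/ml in the study's methods and 5 mg/ml in the sample labels. Whether each library came from its own fish is not stated in the sources used here, so the p-values measure only the spread between these libraries.

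Glycans are made along a route. In the endoplasmic reticulum (ER), ALG enzymes build an oligosaccharide on the lipid dolichol, with the lumenal mannose supplied by the DPM complex. Oligosaccharyltransferase moves it to nascent proteins, where it becomes the N-glycan, and the glucosyltransferase UGGT re-labels misfolded glycoproteins for another round of folding. In the Golgi, MGAT enzymes branch the N-glycan, B4GALT and B3GNT enzymes extend the branches with galactose and N-acetylglucosamine, and sialyl- and fucosyltransferases cap them. Other members start mucin type O-glycans, proteoglycan chains, glycolipids and GPI anchors. In B cells of mammals, both the membrane and the secreted form of IgM carry N-glycans on the heavy chain. Members were placed in 11 families by their descriptions, and human gene symbols are used as short names for genes with the matching protein name. Orthology was not examined, and the gene identifiers had no entry in the RefSeq table used here, so neither coordinates nor sequences are given.

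Library totals ran from 8080787 to 12164154 counts. Members took 0.319 to 0.325% of the counts in control, 0.288 to 0.309% with TNP-KLH and 0.202 to 0.273% with TNP-LPS. A member had a median of 359.5 counts over the 9 libraries (quartiles 73.75 and 1115), and 71 members had under 100. Summed levels of 23 erythrocyte genes stood at 6887 CPM in control replicate 2 and 2372 CPM in TNP-KLH replicate 2, against 31.7 to 390 CPM in the other 7 libraries. CPM is the read count scaled to library size, here with TMM factors. The 8 thrombocyte genes summed to 45.7 to 211 CPM in control, 22.9 to 57.2 CPM with TNP-KLH and 21.9 to 28.3 CPM with TNP-LPS. The 2 neutrophil genes summed to 62.7 to 81.8 CPM in control, 131.7 to 191 CPM with TNP-KLH and 67.7 to 99.3 CPM with TNP-LPS. Of all markers only 1 of these 2 was called with TNP-KLH without the block, a neutrophil cytosol factor 2-like gene (GSONMG00073143001, 1.39, edgeR adjusted p = 0.0429), and that call was lost in 8 of 9 fits without 1 library (up to 0.162), all but the fit without TNP-LPS replicate 1. Markers of B cells, among them the antigen receptor chains CD79 and the adaptor BLNK, were present in every library, though a BLNK-like gene (GSONMG00067691001) had 0 reads in several. Means of the CD79-type genes went from 591 to 134, 239 to 71 and 163 to 71.9 CPM between control and TNP-LPS. A BLNK-like gene (GSONMG00016155001) went from 172 to 25.6 CPM, and another (GSONMG00078045001), not called, from 1016 to 858 CPM. The only IgM heavy chain descriptions in that list, a pair of Ig mu heavy chain disease protein-like genes, stood at 0.313 to 2.14 CPM and 6.07 to 13.3 CPM, so IgM itself was not followed through them. The 14 genes of the list summed to 2720 to 3457 CPM in control, 1952 to 2342 CPM with TNP-KLH and 1652 to 1949 CPM with TNP-LPS, and 6 of the 14 fell with TNP-LPS, as did 4 of the 8 thrombocyte genes. With the replicate number as a block these became 8 of 14 and 6 of 8. Of 23 erythrocyte, 11 T and NK cell, 16 monocyte and macrophage and 2 neutrophil genes, 0 were called with TNP-LPS without the block. With it, 22, 3, 1 and 1 of them fell and 0 rose, so nearly the whole erythrocyte list was called lower in that fit. The erythrocyte sum was 258, 6887 and 94.7 CPM in control replicates 1, 2 and 3. It was 246, 390 and 31.7 CPM in the TNP-LPS libraries of the same numbers, so it hardly differed within replicate 1. Over all genes, 6.73% were called lower with TNP-LPS without the block and 14.2% with it. With TNP-KLH the blocked edgeR fit also called markers lower, beside 4.23% of all genes. Among them were the CD79-type genes (adjusted p = 0.00655, 0.00815 and 0.0133) and thrombocyte genes (0.0126, 5.94e-04 and 0.00113). A perforin-like gene (0.0333) and a hemoglobin gene (0.0446) were called lower too. Blocked marker calls with TNP-KLH are not all given here. Fewer cells of a type and less RNA per cell cannot be told apart in bulk samples, and the part of these markers in the results that follow was not tested.

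With TNP-LPS, glycosyltransferase transcripts moved in both directions, and those that rose and those that fell sat mostly in different families. In all, 10 members rose and 24 fell against control (edgeR's quasi-likelihood test, Benjamini-Hochberg adjusted p below 0.05 over all 31691 genes). The share that rose was 4.07% of members beside 10% of all genes, and the share that fell was 9.76% beside 6.73%. The median log2 fold change was -0.36 over members and -0.09 over all genes, and stayed -0.36 with genes at 0 in a whole group put at their bound. In the 2 ER families of the N-glycan route, 8 of 28 members rose and 1 fell, with a median of 0.57. In the 4 families taken as Golgi families, which branch, extend and cap glycans, 0 of 108 rose and 17 fell, with a median of -0.74. The 17 were not spread evenly over the 4 families. Counts per family below are to be read beside the shares of all genes, 10% higher and 6.73% lower (block, 16.3% and 14.2%). Families followed the descriptions, and the place of each enzyme in the cell was not examined. The fucosyltransferase family, for example, also held protein O-fucosyltransferases (1 gene of type 1 and 2 of type 2), described as acting on the protein itself. Called B4GALT6-like, ST8SIA5 and ST3GAL2-like genes were counted in the Golgi families, though their mammalian counterparts act on glycolipids or O-glycans. The 17 that fell are therefore not all steps of the N-glycan route. Families outside these groupings were left out of this split. With the replicate number as a block, 24 members rose and 45 fell (16.3% and 14.2% of all genes), which were 11 and 3 of the ER families and 3 and 25 of the Golgi families.

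All 34 called members had non-overlapping TNP-LPS and control libraries, and all 34 were also called with the block and by DESeq2, which called 14 members higher and 30 lower (12.1% and 9.06% of all genes). This agreement is not independent support, since it rests on the same counts and both other fits called more genes among all genes. Counting every member without overlap, called or not, 25 were higher and 44 lower (17.4% and 15.2% of all genes). Of the 34 called members, 29 changed at least 2-fold. When 1 library was left out at a time, 20 of the 34 stayed called in all 9 fits. Of the 69 members called with the block, 42 stayed called in all 9 blocked fits without 1 library. Without TNP-LPS replicate 2 the counts were 5 higher and 15 lower, and without TNP-LPS replicate 3 they were 5 higher and 24 lower. Over all genes, calls went from 3181 higher and 2133 lower with all libraries to 2404 and 1238 without TNP-LPS replicate 2. Without TNP-LPS replicate 3 they were 2567 and 1525. Without the 3 libraries numbered 2, which hold both erythrocyte-rich libraries, 4 members rose and 10 fell, 3 and 0 of them in the ER families and 0 and 7 in the Golgi families. Calls over all genes in that fit are not given here.

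**Figure D1:**
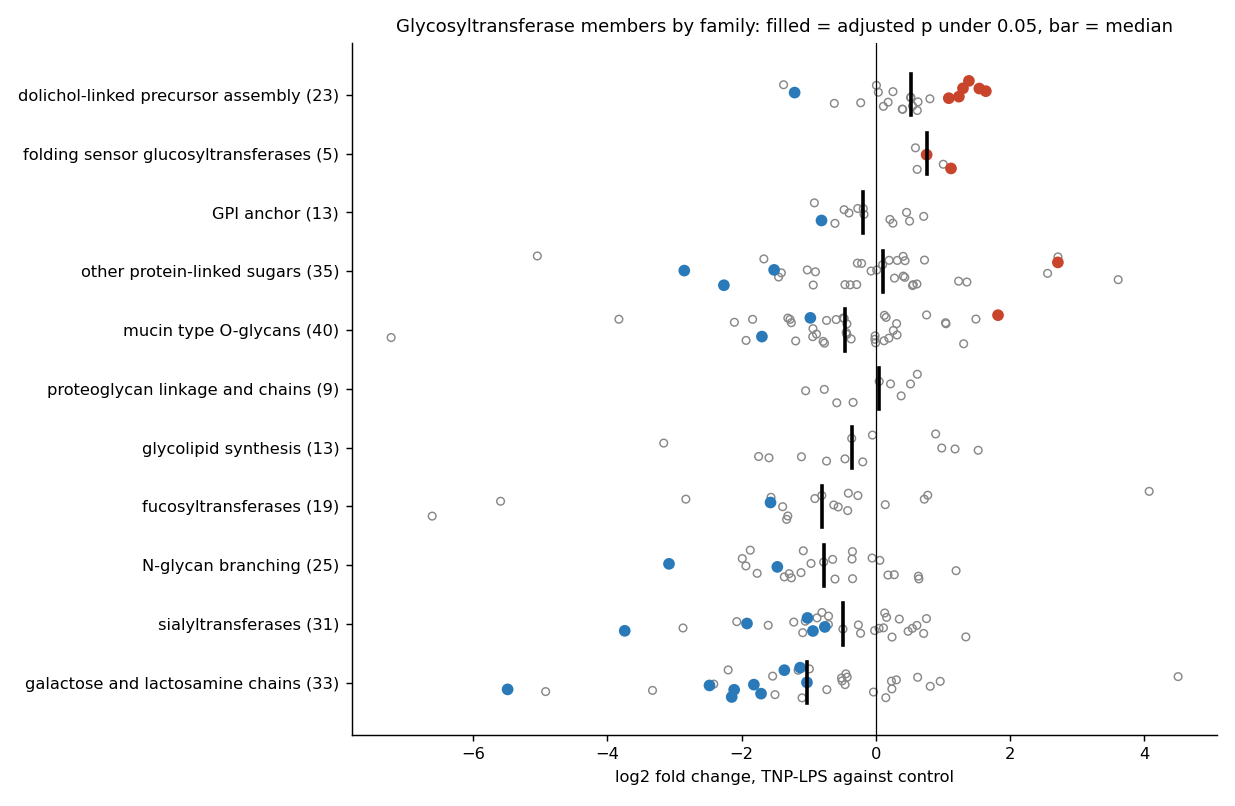
Log2 fold change of TNP-LPS against control (x axis) for the 246 members, 1 point each, by family (y axis, number of members in brackets). Filled points passed an adjusted p of 0.05 (red higher, blue lower), open points did not, and the black bar is the family median. The 10 red points lie in 4 families, 6 of them in dolichol-linked precursor assembly, and the galactose and lactosamine family has 9 blue points and a median of -1.03.

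Assembly of the dolichol-linked precursor held 23 members, all 23 of the matching genes being above the read minimum, and 6 rose and 1 fell with TNP-LPS (block, 7 and 3). DPM1, the catalytic subunit that makes the mannose donor dolichol-phosphate mannose, was represented by a pair of genes. The first (GSONMG00006408001) had 17.1, 14.7 and 10.1 CPM in control, 25.4, 23.5 and 24.6 CPM with TNP-KLH and 46.9, 33.8 and 41.4 CPM with TNP-LPS. Its 3 groups did not overlap, with the TNP-KLH libraries in the middle. The log2 fold change with TNP-LPS was 1.54 (SE 0.23, adjusted p = 0.00171). The other DPM1-like gene (GSONMG00050778001) rose from 7.86 ± 1.53 to 24.5 ± 6.96 CPM (SD, n = 3; log2 fold change 1.64, edgeR adjusted p = 0.00286).

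A further 4 ALG-type genes rose. ALG3, the first mannosyltransferase on the lumenal side of the ER, had an ALG3-type gene (GSONMG00013910001) at 9.2, 5.96 and 8.17 CPM in control and 20.2, 17.2 and 17.7 CPM with TNP-LPS. The groups were apart by more than their whole spread (log2 fold change 1.24, SE 0.25, edgeR adjusted p = 0.00735). ALG8, which adds the second glucose, ALG1, which adds the first mannose, and ALG9, which adds further mannoses, had changes of 1.30 (GSONMG00046486001, edgeR adjusted p = 0.0354), 1.09 (GSONMG00013576001, 0.0422) and 1.39 (GSONMG00024005001, 0.0463). These last 3 calls were less stable. The ALG8- and ALG1-type calls were each lost in 6 of the 9 fits without 1 library (adjusted p up to 0.119 and 0.105) and the ALG9 call in 8 (up to 0.153), all 3 of them without TNP-LPS replicate 2 and without TNP-LPS replicate 3.

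Of the same assembly line, 1 gene fell without the block and 3 with it. ALG11 adds the last mannoses on the cytosolic side, and an ALG11-type gene (GSONMG00048678001) had 66.8, 100 and 63.8 CPM in control, 45.8, 63.6 and 42.6 CPM with TNP-KLH and 34.9, 29.8 and 35.1 CPM with TNP-LPS. Every TNP-LPS library was below every other library. The log2 fold change was -1.21 (SE 0.25, edgeR adjusted p = 0.00849), and the call stayed in all 9 fits without 1 library. The most counted gene of the family, an ALG12-type gene (GSONMG00068868001) for a lumenal mannosyltransferase, had 63.9 ± 6.81 CPM in control and 54.7 ± 3.2 CPM with TNP-LPS (SD, n = 3), with an edgeR adjusted p of 0.512. Another pair of ALG12-type genes, neighbours by identifier, were named because they made up the other blocked calls. They had -1.37 (GSONMG00023087001, edgeR adjusted p = 0.0754, block 0.00798) and -0.62 (GSONMG00023086001, 0.201, block 0.0449). The first of them had its highest value in the erythrocyte-rich control replicate 2, with 27.7, 66.9 and 16.8 CPM in control and 11.2, 13.4 and 18.2 CPM with TNP-LPS, groups that overlapped. The summed level of the family overlapped between groups, at 311 to 461 CPM in control and 372 to 468 CPM with TNP-LPS.

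UGGT is the folding sensor. All 5 members of the family had log2 fold changes above 0, of which 2 passed the test with TNP-LPS and 4 passed it with the block. A UGGT1-like gene (GSONMG00010567001) had 10.4, 12 and 10 CPM in control, 17.8, 19.5 and 20.2 CPM with TNP-KLH and 19.4, 20.1 and 31 CPM with TNP-LPS. Both antigens stood above control, while TNP-KLH and TNP-LPS overlapped (TNP-LPS against control 1.12, SE 0.23, edgeR adjusted p = 0.00788). Its neighbour by identifier (GSONMG00010568001) changed by 0.76 (adjusted p = 0.034), a call lost in 6 fits without 1 library (adjusted p up to 0.118; without control replicates 1 and 3, TNP-KLH replicates 2 and 3, and TNP-LPS replicates 2 and 3). The most counted of all 246 members was also a UGGT1-like gene (GSONMG00010086001), with 110, 138 and 90.4 CPM in control, 169, 226 and 168 CPM with TNP-KLH and 167, 164 and 186 CPM with TNP-LPS. Control lay below both antigens without overlap, but the adjusted p with TNP-LPS was 0.0938, and 0.0144 with the block. Summed over the 5 genes, control stood at 173 to 245 CPM, TNP-KLH at 317 to 394 CPM and TNP-LPS at 325 to 389 CPM.

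**Figure D2:**
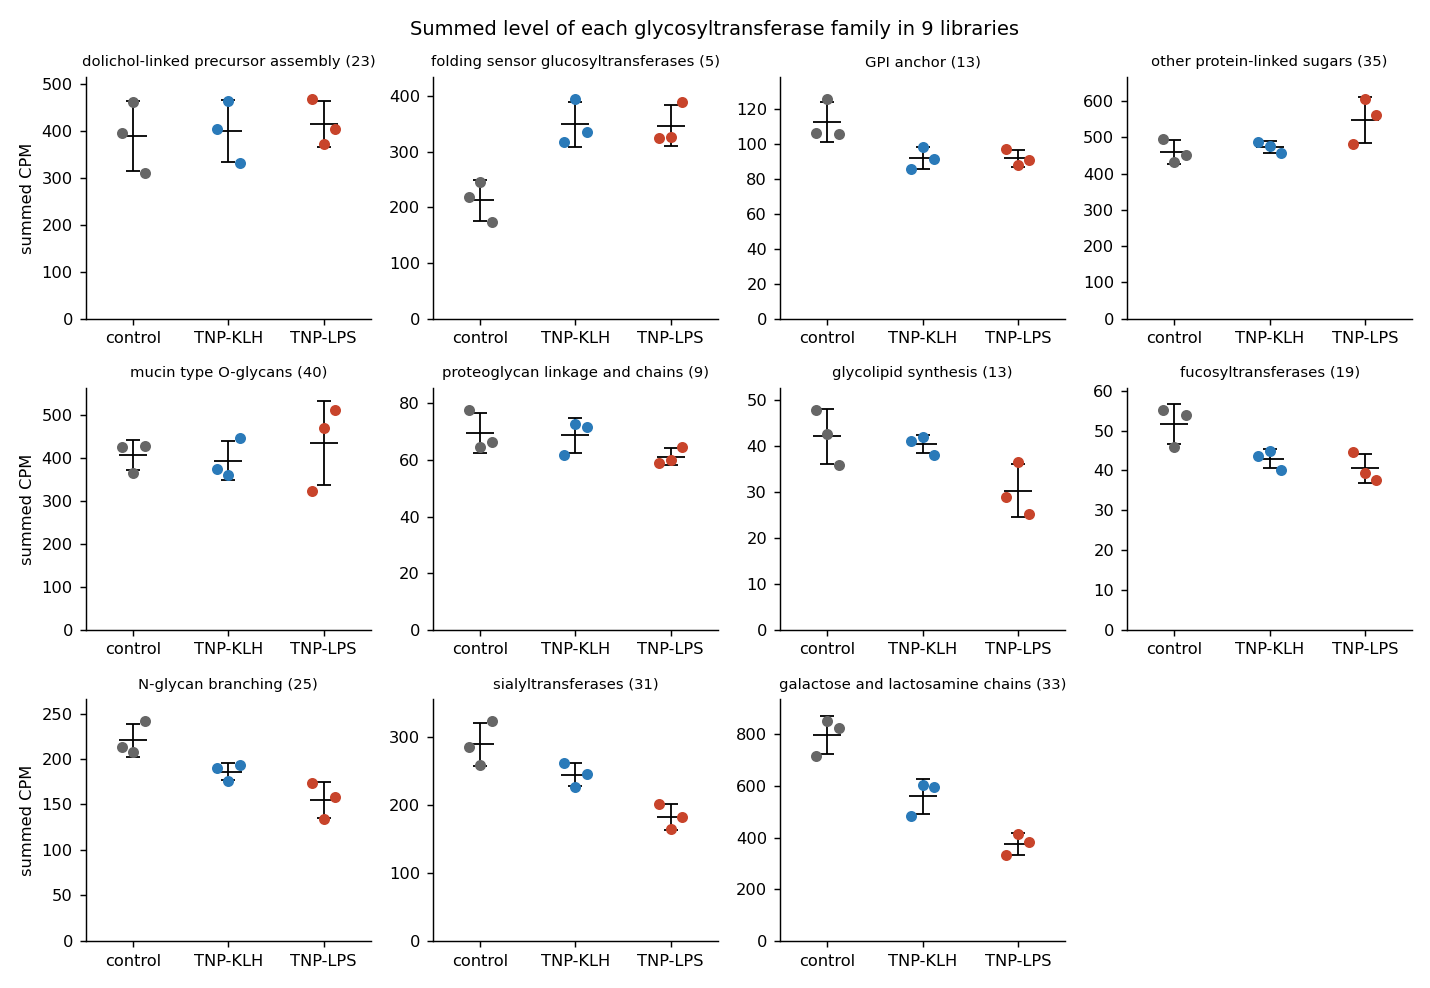
Summed CPM (y axes, each from 0) of the members of each of the 11 families in the 9 libraries, by group (x axis; number of genes in brackets). Points are libraries, the horizontal bar is the group mean and the whiskers the SD over 3 libraries. The galactose and lactosamine genes fall from 714 to 850 CPM in control to 331 to 414 CPM with TNP-LPS, while the folding sensors lie at 173 to 245 CPM in control and at 317 to 394 CPM with either antigen.

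Enzymes that extend glycans with galactose and N-acetylglucosamine made up the family with the most calls, with 9 of 33 lower and 0 higher with TNP-LPS (block, 10 and 1). Of these 9, 7 were among the 14 B4GALT genes. B4GALT1, the main galactosyltransferase of N-glycan branches in mammals, had a gene (GSONMG00066944001) at 160, 152 and 164 CPM in control, 96.7, 101 and 102 CPM with TNP-KLH and 49.2, 47.6 and 48.6 CPM with TNP-LPS. Libraries within a group lay close together and the groups were far apart. The log2 fold change was -1.71 with TNP-LPS (SE 0.17, edgeR adjusted p = 2.79e-04). A further B4GALT1-like gene (GSONMG00078739001) had -1.13 (adjusted p = 0.0163), lost without control replicate 2, TNP-LPS replicate 2 or TNP-LPS replicate 3 (adjusted p up to 0.066).

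B4GALT6 makes lactosylceramide, the base of most gangliosides, in mammals. A B4GALT6-like gene (GSONMG00026764001), the most counted of this family, had 161, 189 and 209 CPM in control, 83.5, 101 and 140 CPM with TNP-KLH and 27.2, 39.9 and 59.1 CPM with TNP-LPS. In every group replicate 1 was lowest and replicate 3 highest, and the groups did not overlap. It changed by -2.15 with TNP-LPS (SE 0.32, edgeR adjusted p = 0.00163), and another pair of B4GALT6-like genes changed by -2.11 (GSONMG00035967001, 0.00781) and -1.82 (GSONMG00026765001, 0.0489). The last of these calls was lost in 8 of 9 fits without 1 library (adjusted p up to 0.157), all but the fit without TNP-LPS replicate 3.

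B4GALT4-like genes fell as a pair. The first (GSONMG00050110001) had 9.71, 9.4 and 14.3 CPM in control, 2.51, 2.91 and 2.83 CPM with TNP-KLH and 1.71, 2.01 and 2.23 CPM with TNP-LPS, so that both antigens were far below control. Its log2 fold change with TNP-LPS was -2.48 (SE 0.29, edgeR adjusted p = 4.9e-04). The other (GSONMG00007341001) had -1.03 (adjusted p = 0.045), lost in 8 of 9 fits without 1 library (adjusted p up to 0.136), all but the fit without TNP-LPS replicate 3. Of the B3GALT enzymes, a B3GALT2-like gene (GSONMG00018420001) changed by -1.36 (adjusted p = 0.0166), and this call was lost without control replicate 2, TNP-LPS replicate 2 or TNP-LPS replicate 3 (up to 0.0638).

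The lowest fitted value among the called members belonged to a B3GNT7-like gene (GSONMG00007180001). In mammals B3GNT7 adds N-acetylglucosamine to lactosamine chains, among them those of keratan sulfate. It had 6.78, 8.88 and 5.68 CPM in control, 1.31, 3.28 and 1.85 CPM with TNP-KLH and 0, 0.211 and 0.186 CPM with TNP-LPS. The TNP-LPS values rest on 0, 2 and 2 reads, against 67, 85 and 73 reads in control, so the fitted log2 fold change of -5.49 (SE 0.64, edgeR adjusted p = 5.05e-04) has a coarse base at its low end. Among the 11 B3GNT genes it was the only call.

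Branching enzymes of the N-glycan came to 25 members, 2 lower and 0 higher with TNP-LPS (block, 7 and 0; family median -0.78). Over all genes 6.73% fell (block, 14.2%), so without the block the 2 lower calls were near that share. MGAT1 adds the first N-acetylglucosamine and thereby opens the way to complex N-glycans. An MGAT1-type gene (GSONMG00002046001) had 14.6, 22.6 and 15.4 CPM in control, 11, 6.64 and 6.98 CPM with TNP-KLH and 7.45, 6.87 and 4.73 CPM with TNP-LPS. Control was above both antigens without overlap (-1.47 with TNP-LPS, SE 0.30, edgeR adjusted p = 0.00853). The other call, an MGAT4B gene for a later branch (GSONMG00065864001, -3.08, adjusted p = 0.0454), had 1, 0 and 4 reads with TNP-LPS and was lost in 8 of 9 fits without 1 library (adjusted p up to 0.122), all but that without TNP-LPS replicate 3. MGAT2, which follows MGAT1, was represented by the most counted gene of the family (GSONMG00055994001), at 37.9, 32.9 and 33 CPM in control and 50.3, 32 and 35.6 CPM with TNP-LPS. The groups overlapped (0.18, edgeR adjusted p = 0.624).

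MGAT5 makes the branch that carries long lactosamine chains. Of 4 MGAT5A-like genes, 3 fell only in the fit with the block, and they are given here after their values were seen. They include neighbours by identifier, GSONMG00011418001 and GSONMG00011419001. The gene GSONMG00011419001 had 15.4, 18.8 and 46.6 CPM in control, 10, 10.3 and 28.6 CPM with TNP-KLH and 4.19, 4.12 and 13.6 CPM with TNP-LPS. Replicate 3 was the highest of its group in all 3 groups, and within each replicate number the TNP-LPS library was lowest (log2 fold change -1.87, edgeR adjusted p = 0.0739, and 1.49e-06 with the block).

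**Figure D3:**
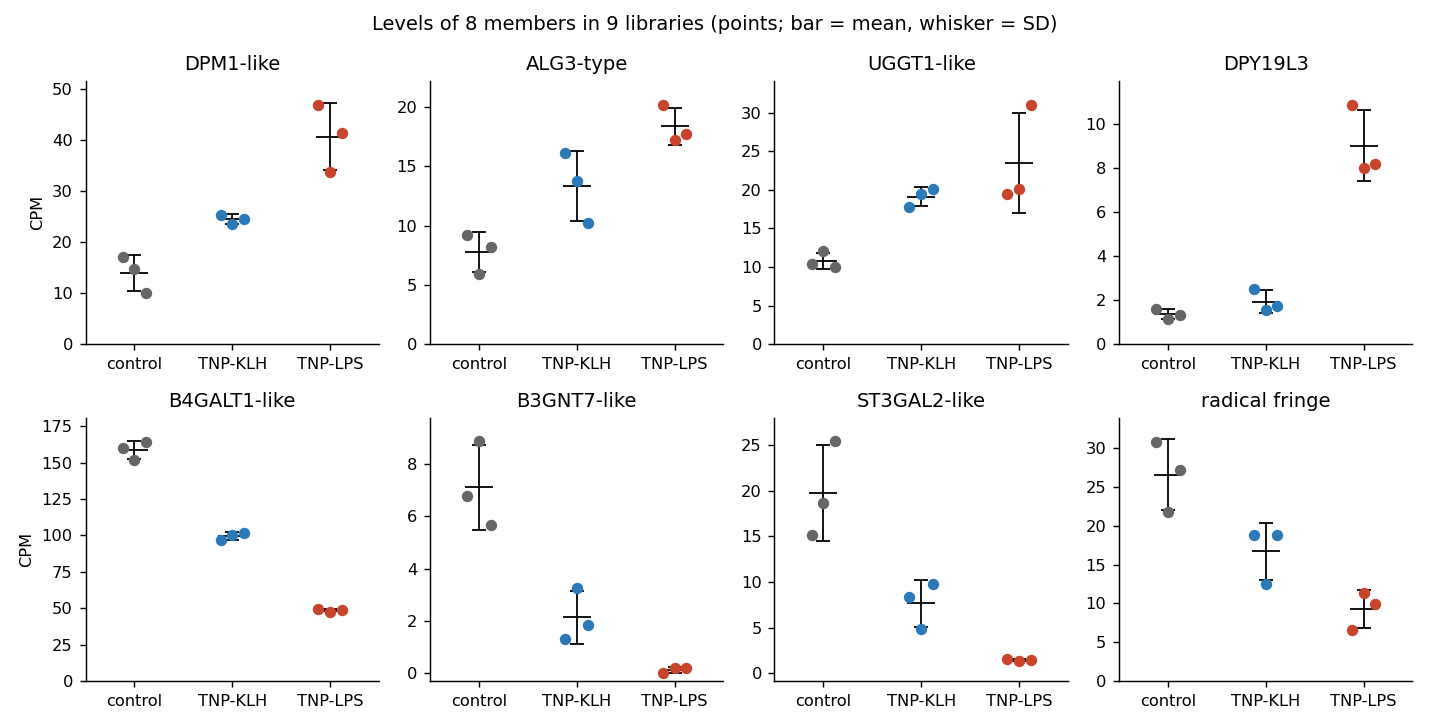
CPM (y axes) of 8 members in the 9 libraries by group (x axis): 3 genes of the ER stage and DPY19L3 in the upper row, 4 genes of later stages in the lower row. Points are libraries, bars are means and whiskers are SDs over 3 libraries. TNP-KLH libraries lie between control and TNP-LPS for DPM1-like (25.4, 23.5 and 24.6 CPM) and B4GALT1-like (96.7, 101 and 102 CPM), and near control for DPY19L3 (2.51, 1.55 and 1.74 CPM).

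Sialyltransferases, which cap glycans with sialic acid, came to 31 members, of which 5 fell and 0 rose with TNP-LPS (block, 6 and 1). An ST3GAL2-like gene (GSONMG00048288001) had the smallest p of all members. In mammals this enzyme sialylates core 1 O-glycans and gangliosides. It had 15.2, 18.6 and 25.4 CPM in control, 8.4, 4.82 and 9.81 CPM with TNP-KLH and 1.55, 1.37 and 1.49 CPM with TNP-LPS, 3 groups with no overlap. The log2 fold change with TNP-LPS was -3.74 (SE 0.35, edgeR adjusted p = 2.34e-04). An ST6GALNAC6-like gene (GSONMG00057773001), of a family that sialylates N-acetylgalactosamine, had 7.89, 8.88 and 8.71 CPM in control, 6.87, 6.83 and 6.32 CPM with TNP-KLH and 2.17, 2.11 and 2.41 CPM with TNP-LPS. Here TNP-KLH lay close to control and TNP-LPS far below both (-1.92, SE 0.24, adjusted p = 6.19e-04).

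The most counted sialyltransferase was an ST8SIA5 gene (GSONMG00050173001), whose mammalian counterpart adds sialic acid to gangliosides. It had 80.6, 81.4 and 76.2 CPM in control, 57.1, 58.4 and 57.1 CPM with TNP-KLH and 39.6, 40.5 and 44.4 CPM with TNP-LPS. The 3 levels were evenly stepped and tight within groups (-0.94 with TNP-LPS, SE 0.17, edgeR adjusted p = 0.00421). An ST8SIA5-like gene (GSONMG00023514001) changed by -0.76 (adjusted p = 0.0363) and an ST3GAL4-like gene (GSONMG00067554001) by -1.02 (0.0277). The first of these calls was lost in 8 of 9 fits without 1 library (adjusted p up to 0.132), all but the fit without control replicate 2. The other was lost without control replicate 2 or 3 or TNP-LPS replicate 1 or 2 (up to 0.0836). Not all sialyltransferases fell, since the 16 ST3 genes had a median log2 fold change of 0.05.

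Fucosyltransferases gave 0 higher and 1 lower call among 19 members (block, 1 and 2), near the 6.73% of all genes called lower without the block. The call was an FUT10 gene (GSONMG00030494001) at 1.82, 3.76 and 4.36 CPM in control and 1.24, 1.27 and 0.836 CPM with TNP-LPS. The groups did not overlap (-1.57, SE 0.48, edgeR adjusted p = 0.0496), but the call was lost in 8 of 9 fits without 1 library (adjusted p up to 0.154), all but the fit without control replicate 1. The most counted member, of the FUT8 type that puts fucose on the N-glycan core (GSONMG00019520001), had 7.5 ± 3.17 CPM in control and 4.32 ± 1.17 CPM with TNP-LPS (SD, n = 3; edgeR adjusted p = 0.223).

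Mucin type O-glycan enzymes numbered 40, of which 1 rose and 2 fell with TNP-LPS (block, 3 and 7). GALNT enzymes start these glycans by adding N-acetylgalactosamine to serine or threonine. A GALNT6-like gene (GSONMG00074484001) had 25.8, 42.9 and 66.4 CPM in control, 52.8, 107 and 117 CPM with TNP-KLH and 76.7, 213 and 188 CPM with TNP-LPS. Replicate 1 was the lowest library in every group, and TNP-LPS did not overlap control. The log2 fold change was 1.82 (SE 0.48, edgeR adjusted p = 0.0271, and 2.43e-06 with the block). Without control replicate 1 or 2 or TNP-LPS replicate 2 or 3 the call was lost (adjusted p up to 0.0936).

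Of those that fell, GALNT7, which prefers substrates that already carry a sugar, was represented by a gene (GSONMG00018927001) at 33.3, 27.6 and 27.4 CPM in control, 14.7, 14.7 and 15.4 CPM with TNP-KLH and 6.52, 8.56 and 12 CPM with TNP-LPS, 3 groups without overlap (-1.70, SE 0.24, edgeR adjusted p = 0.00124). A GALNT18-like gene (GSONMG00067025001) changed by -0.97 (adjusted p = 0.00791), and 4 of the 5 GALNT18-like genes fell with the block. A pair of GCNT-type genes, for enzymes that branch O-glycans, rose only with the block. Of these, chosen after their values were seen, a GCNT4-like gene (GSONMG00028610001) had 6.78, 15.6 and 14.5 CPM in control and 9.32, 34.3 and 59.6 CPM with TNP-LPS, groups that overlapped (1.49, edgeR adjusted p = 0.176, and 0.00119 with the block). The other, a GCNT7-like gene (GSONMG00026698001), had an adjusted p of 0.415, and of 0.00149 with the block.

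Among the other protein-linked sugars, 1 of 35 members rose and 3 fell with TNP-LPS (block, 7 and 4). The one that rose, DPY19L3 (GSONMG00026055001), encodes a C-mannosyltransferase that attaches mannose to tryptophan, in human cells on thrombospondin type repeats. It had 1.62, 1.15 and 1.32 CPM in control, 2.51, 1.55 and 1.74 CPM with TNP-KLH and 10.9, 8.03 and 8.17 CPM with TNP-LPS. Only the TNP-LPS libraries stood apart, above all others (2.71, SE 0.33, edgeR adjusted p = 5.9e-04). Another pair of genes with the same description, 1 of them its neighbour by identifier, had 3.61 (GSONMG00026056001, adjusted p = 0.0567, block 9.91e-04) and 2.56 (GSONMG00008098001, adjusted p = 0.0916, block 0.0196). Both had 0 CPM in control replicate 3, and they are given because they share the description.

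All 3 that fell were fringe genes, which lengthen O-fucose on the Notch receptor and so change its choice of ligand. A radical fringe gene (GSONMG00022947001) had 30.8, 21.7 and 27.1 CPM in control, 18.9, 12.5 and 18.9 CPM with TNP-KLH and 6.52, 11.3 and 9.93 CPM with TNP-LPS. Its groups did not overlap (-1.51, SE 0.27, edgeR adjusted p = 0.00435). A further radical fringe gene (GSONMG00052671001) had 4.45, 5.02 and 6.69 CPM in control and 0.466, 1.06 and 0.65 CPM with TNP-LPS (-2.85, adjusted p = 0.0027). The manic fringe-like gene (GSONMG00041823001) changed by -2.26 (adjusted p = 0.00614). These 3 of the 5 fringe members stayed called in all 9 fits without 1 library.

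OGT, which adds N-acetylglucosamine to nuclear and cytosolic proteins, had 7 genes. None of the 7 passed the edgeR test (3 higher with the block), and the most counted (GSONMG00039084001) had 72.8 ± 9.12 CPM in control, 71.8 ± 8.82 CPM with TNP-KLH and 83.6 ± 10.6 CPM with TNP-LPS (SD, n = 3), ranges that overlapped (adjusted p = 0.568). In the glycolipid family 0 of 13 members were called in either direction (block, 0 higher and 2 lower). That family leaves out the B4GALT6-like and ST8SIA5-type genes, whose mammalian counterparts act on glycolipids. By their descriptions they were counted with the galactose and sialyltransferase families, where some of them were called lower. Its smallest p belonged to a UGCG-like gene for glucosylceramide synthesis (GSONMG00047460001; 11.7 ± 2.77 CPM in control, 7.06 ± 1.83 CPM with TNP-LPS; adjusted p = 0.103, block 0.0246). A globoside galactosaminyltransferase gene (GSONMG00066200001), the most counted there, had an adjusted p of 0.305. Proteoglycan enzymes gave 0 of 9 (block, 2 lower), with adjusted p of 0.0618 (block 0.00988) for B3GALT6-like (GSONMG00048064001), which builds the linkage region, and 0.296 for CSGALNACT2-like (GSONMG00064449001), which starts chondroitin chains.

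GPI anchor enzymes gave 0 higher and 1 lower call among 13 (block, 0 and 2), near the 6.73% of all genes called lower without the block. PIGA is the catalytic part of the first step, and a PIGA-like gene (GSONMG00061704001) had 13.2, 13.4 and 13.3 CPM in control, 8.4, 10.9 and 10.7 CPM with TNP-KLH and 7.14, 7.5 and 7.98 CPM with TNP-LPS. The groups did not overlap (-0.82, SE 0.20, edgeR adjusted p = 0.0192). The call was lost without control replicate 1, TNP-LPS replicate 1 or TNP-LPS replicate 2 (adjusted p up to 0.0644). PIGB (GSONMG00066099001), the most counted of this family and a mannosyltransferase, had -0.40 (adjusted p = 0.316).

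**Figure D4:**
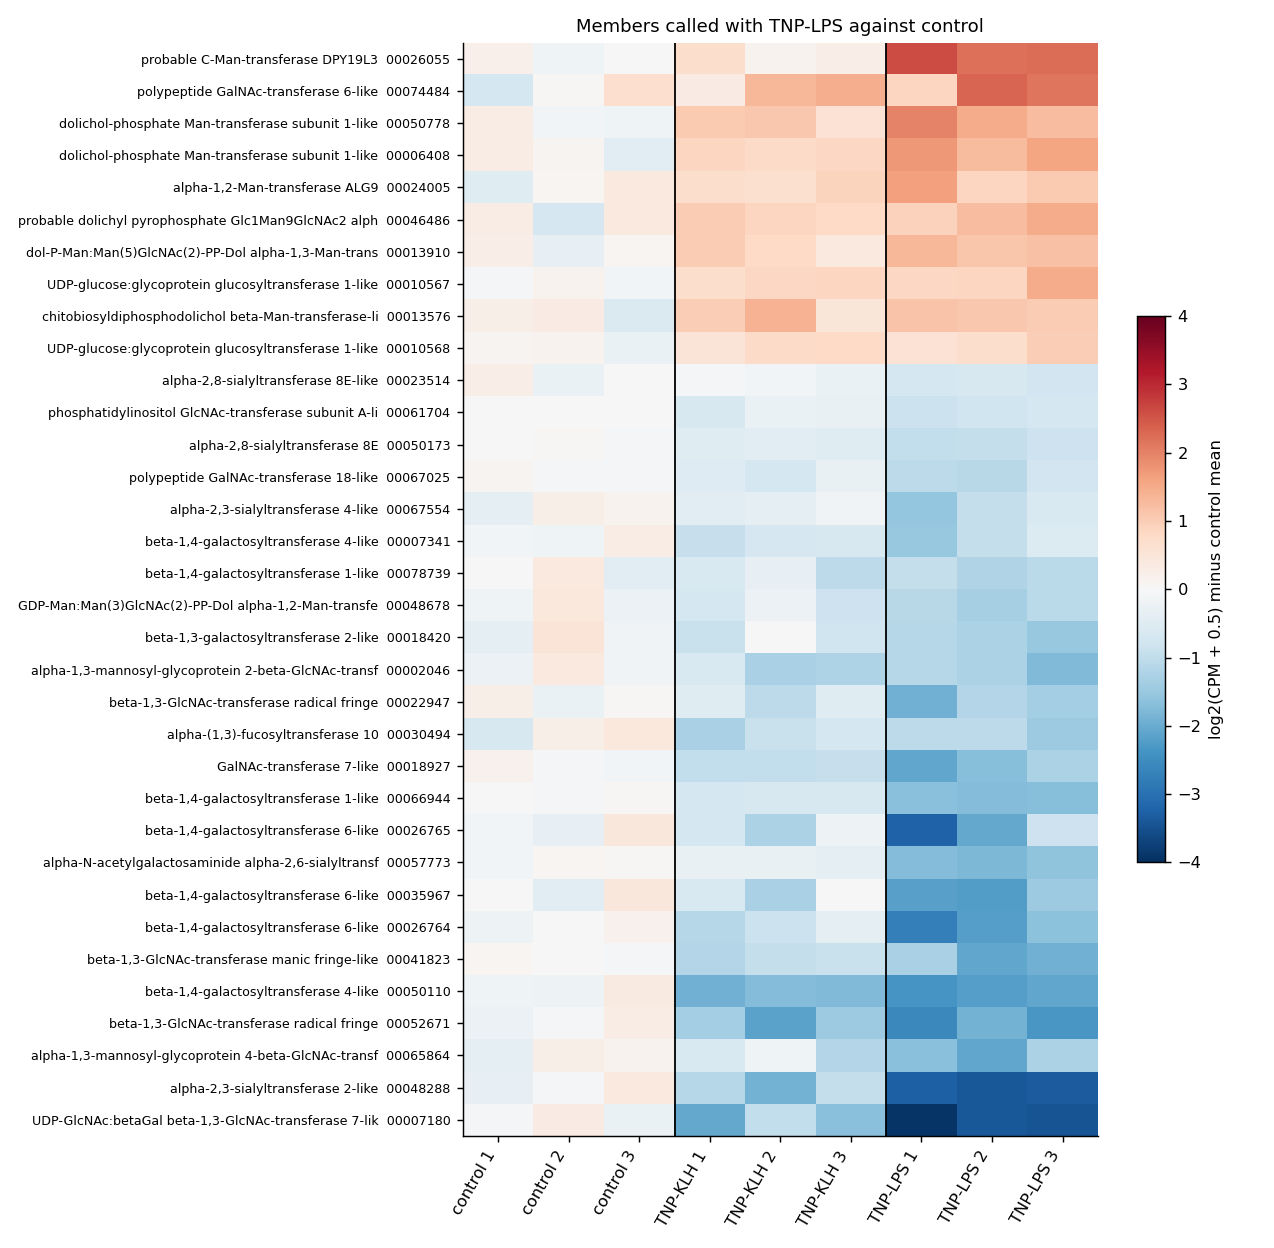
Heat map of the 34 members called with TNP-LPS against control (rows, by fold change, with the digits of the identifier) in the 9 libraries (columns). Colour is log2(CPM + 0.5) minus the mean of the control libraries, from -4 (blue) to 4 (red). In all 34 rows the mean CPM with TNP-KLH lies between the other 2 means, which also held for 96.5% of the 5314 genes called in all.

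TNP-KLH against control gave 1 call, the B4GALT4-like gene GSONMG00050110001 described above (log2 fold change -2.01, SE 0.28, edgeR adjusted p = 0.0259). That was 0 members higher and 1 lower, beside 0.760% and 0.117% of all genes, and 33 of the 246 members had an unadjusted p below 0.05, beside 3995 of all 31691 genes. The call was lost in 8 of 9 fits without 1 library (adjusted p up to 0.137) and stayed only without TNP-LPS replicate 1. DESeq2 called 5 higher and 8 lower (3.11% and 1.33% of all genes). TNP-KLH and control libraries did not overlap in 16 members that were higher and 32 that were lower (9.67% and 8.72% of all genes).

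With the block, 9 of the 246 members rose and 10 fell with TNP-KLH, beside 6.05% and 4.23% of all genes. The share that rose was thus below that of all genes, and the share that fell was near it. Some B cell and thrombocyte markers were also called lower in that fit, as given above. Those that rose were both DPM1-like genes, the ALG1- and ALG3-type genes, 3 UGGT1-like genes, the GALNT6-like gene and a B4GALT3-like gene (GSONMG00071942001). Those that fell were B4GALT1-like (2 genes), B4GALT4-like, B4GALT6-like, B3GNT7-like, ST3GAL2-like, GALNT7-like, MGAT1-type, MGAT5A-like and radical fringe (1 gene each). ST3GAL2-like changed by -1.36 (edgeR adjusted p = 0.073, and 0.00173 with the block), and the first DPM1-like gene by 0.81 (0.15, and 0.0115 with the block). B4GALT1-like changed by -0.67 (0.109, and 0.0138 with the block). When 1 library was left out of the blocked fit, 3 of the 19 calls stayed in all 9 fits, those of ST3GAL2-like, B4GALT4-like and GALNT6-like. Of the 19, all but the B4GALT3-like gene were also called with TNP-LPS with the block and had the same sign, but both comparisons use the same control libraries.

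Compared directly, TNP-LPS and TNP-KLH differed in 5 members. DPY19L3 was higher with TNP-LPS (1 member, beside 2.12% of all genes), by 2.22 on the log2 scale (SE 0.32, edgeR adjusted p = 0.0235). Lower were 4 members (beside 0.745%), namely B3GNT7-like (-3.77, SE 0.65, adjusted p = 0.0258), ST3GAL2-like (-2.38, SE 0.34, 0.0235), ST6GALNAC6-like (-1.57, SE 0.24, 0.0235) and B4GALT1-like (-1.04, SE 0.17, 0.025). In all 5 the TNP-LPS and TNP-KLH libraries did not overlap, as in 16 members higher and 32 lower in all (14% and 9.36% of all genes). DESeq2 called 1 higher and 8 lower (5.00% and 2.29% of all genes). Each of these calls was lost when any TNP-KLH library, TNP-LPS replicate 1 or TNP-LPS replicate 2 was left out, with adjusted p up to 0.13. The B3GNT7-like and B4GALT1-like calls were lost without TNP-LPS replicate 3 as well. With the block, 6 members were higher and 17 lower (8.49% and 5.94% of all genes), and the 3 B4GALT6-like genes and a pair of MGAT5A-like genes were among those lower.

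Rainbow trout carry many duplicated genes, and copies with the same description did not always move together. Among the members, 151 genes fell into 61 sets of 2 to 4 with an identical description, giving 128 pairs. With TNP-LPS 94 of the 128 pairs changed in the same direction. Both genes were called in 6 pairs and 1 gene in 25, and no pair was called in opposite directions. Reads that fit both copies cannot be told apart in these counts. In 10 of these pairs the identifiers were neighbours, and 34 of all members stood next to another member by identifier. Whether such neighbours are separate genes or parts of 1 gene was not examined. Among them were called pairs of UGGT1-like genes (GSONMG00010567001 and GSONMG00010568001) and B4GALT6-like genes (GSONMG00026764001 and GSONMG00026765001). One B4GALT6-like gene (GSONMG00041193001) had a log2 fold change of 0.31 beside -2.15, -2.11 and -1.82 in the other 3. The other B3GNT7-like gene (GSONMG00079202001) had 0.62 beside -5.49, and the other 3 ST3GAL2-like genes lay between -1.09 and 0.11 beside -3.74. A second ST8SIA5 gene (GSONMG00072626001) had 0.75 beside -0.94. The other ALG8-type gene (GSONMG00013898001) had 0.39 beside 1.30. In the B4GALT1-like set, the uncalled copies lay between -0.99 and 0.24 beside -1.71. None of these uncalled copies passed the test, and differences between copies were not tested.

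**Figure D5:**
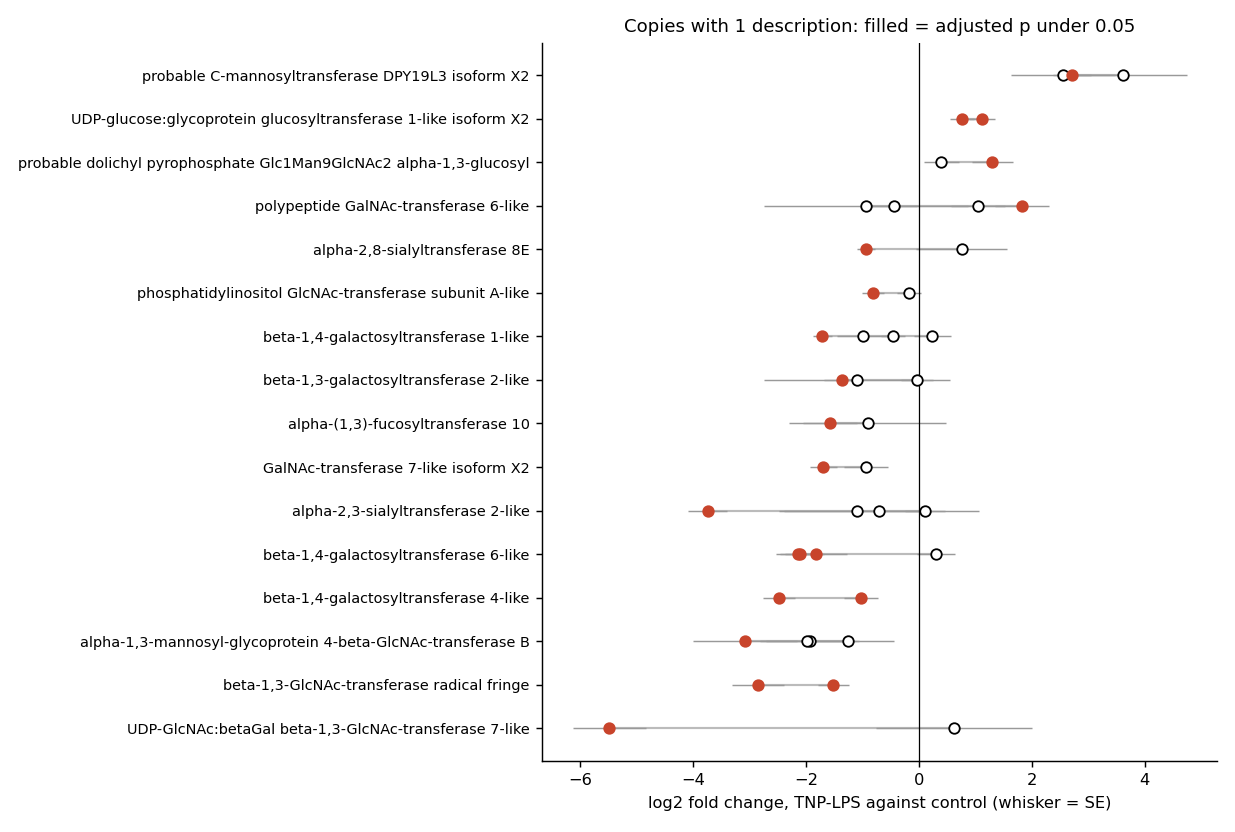
Log2 fold change of TNP-LPS against control (x axis, whiskers are SE) for the 44 genes in the 16 sets of members with 1 shared description and at least 1 call (y axis). Filled points passed an adjusted p of 0.05 and open points did not. Radical fringe and B4GALT4-like copies are all filled, whereas 1 of 4 ST3GAL2-like genes is filled, at -3.74.

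Further lists of genes, drawn up by description alone, were set beside the members. Whether each listed gene takes part in the same route was not tested. Over all genes, 10% rose and 6.73% fell with TNP-LPS (block, 16.3% and 14.2%). Oligosaccharyltransferase subunits, which hand the finished precursor to the protein, had 4 of 17 higher and 0 lower with TNP-LPS (block, 10 and 0; median 0.59). STT3B, a catalytic subunit (GSONMG00080359001), had 10.3, 9.82 and 12.2 CPM in control, 17.7, 22.8 and 22.1 CPM with TNP-KLH and 22.8, 20.2 and 29.6 CPM with TNP-LPS, with control below both antigens (1.17, SE 0.22, edgeR adjusted p = 0.00521). The others were subunit 1 (GSONMG00065440001, 1.14, adjusted p = 0.0191), subunit 2 (GSONMG00054453001, 1.04, 0.0158) and DAD1 (GSONMG00076172001, 1.32, 0.0241). Calls for subunit 1 and DAD1 were lost without TNP-LPS replicate 1, for subunit 2 without TNP-LPS replicate 3, for all 3 without control replicate 3, and for DAD1 also without control replicate 2 (adjusted p up to 0.0562, 0.0576 and 0.0784 for subunits 1 and 2 and DAD1).

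Sugar donors showed both directions, with 2 of 50 genes of sugar nucleotide synthesis higher and 4 lower (block, 10 and 7). Both that rose make sialic acid, namely sialic acid synthase (GSONMG00078723001, 1.37, edgeR adjusted p = 0.0185) and the epimerase and kinase GNE (GSONMG00078727001, 0.96, 0.0252). Their calls were lost without TNP-LPS replicate 1 and 1 or 2 further libraries (control replicate 3, or control replicate 2 and TNP-LPS replicate 3; adjusted p up to 0.0619 and 0.086). L-fucose kinase, which recycles fucose for the donor of fucosyltransferases, fell in both of the genes called. GSONMG00059695001 had 13.2, 20.2 and 18.7 CPM in control, 5.78, 4.19 and 8.28 CPM with TNP-KLH and 0.932, 1.9 and 3.43 CPM with TNP-LPS, with no overlap (-3.01, SE 0.44, adjusted p = 0.00154). The other kinase gene (GSONMG00016301001) had -2.38 (0.0135). A mannose-1-phosphate guanyltransferase gene (GSONMG00070993001), for the enzyme that makes GDP-mannose, fell by 1.89 on the log2 scale (0.005), and an N-acetylhexosamine pyrophosphorylase-like gene (GSONMG00008791001) had -1.80 (0.0347), lost in 5 fits (up to 0.1; without control replicate 1 or 3, TNP-KLH replicate 3, or TNP-LPS replicate 2 or 3).

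Among 40 transporters of the SLC35 type, 3 rose and 2 fell (block, 5 and 5). The 3 that rose were SLC35F2-like (GSONMG00003055001, 2.5, edgeR adjusted p = 0.00355), SLC35E1 (GSONMG00081313001, 1.07, 0.0083) and SLC35E2-like (GSONMG00061353001, 1.55, 0.0121). Lower were an SLC35F5-like gene (GSONMG00056292001, -1.20, 0.0464; lost in 6 fits, up to 0.14) and the CMP-sialic acid transporter-like gene (GSONMG00037292001), which had 6.67, 15.6 and 8.48 CPM in control and 1.4, 2.43 and 3.25 CPM with TNP-LPS (-2.09, adjusted p = 0.0107). The SLC35F5-like call was lost without control replicate 2 or 3, TNP-KLH replicate 2 or 3, or TNP-LPS replicate 1 or 3.

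Among 74 glycosidases, which trim glycans, 1 rose and 6 fell, beside 10% and 6.73% of all genes (block, 8 and 17, beside 16.3% and 14.2%). Beta-galactosidase (GSONMG00041944001) had -0.86 (edgeR adjusted p = 0.0157; up to 0.0557 and lost without control replicate 2 or TNP-LPS replicate 1 or 2). EDEM3 (GSONMG00013859001), which trims mannose from misfolded glycoproteins, had -1.14 (0.0169; up to 0.0608 and lost without control replicate 2 or TNP-LPS replicate 1 or 3). Carbohydrate sulfotransferases gave 1 higher and 1 lower of 35 (block, 1 and 3). These were an NDST1-like gene of heparan sulfate synthesis (GSONMG00032143001, 1.57, adjusted p = 0.0319; up to 0.122 and lost without any 1 control library or TNP-LPS replicate 2 or 3) and a CHST15-like gene (GSONMG00077528001, adjusted p = 0.0179; up to 0.0708 and lost without control replicate 3 or TNP-LPS replicate 2 or 3) with 10, 14 and 29 reads in control and 1, 0 and 0 with TNP-LPS. Lectins, which bind glycans, gave 2 lower of 67 (block, 2 higher and 9 lower), namely CLEC4M-like (GSONMG00039088001, -1.51, 0.00754) and galectin-3-like (GSONMG00074999001, -0.97, 0.0123). With TNP-KLH 0 genes of these 6 lists were called in either direction without the block. With it, 1 oligosaccharyltransferase, 3 transporter and 2 lectin genes rose, and 1 sugar nucleotide, 2 glycosidase and 1 sulfotransferase genes fell. Over all genes, 0.760% rose and 0.117% fell with TNP-KLH without the block, and 6.05% and 4.23% with it.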

How the data were processed

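RNA from sorted IgM+ B cells was sequenced by the authors with a stranded total RNA kit, 9 libraries in all. The authors trimmed adapters, mapped reads with TopHat to the Genoscope trout genome (minimum intron 50) and made gene counts with HTSeq after SAMtools. The sources used here do not give versions or the strand setting of the counting, so antisense overlaps cannot be told apart. The deposited tables hold these raw counts, the same in all 3 tables, and the authors' DESeq results (group means, fold changes, p-values), which were not used. A RefSeq gene table matched 0 identifiers.

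Counts of all 9 libraries were fitted on all 31691 genes with edgeR 4.0.16 (R 4.3.3, TMM, quasi-likelihood, 1 factor of 3 groups), with Benjamini-Hochberg adjustment over all genes and a threshold of 0.05. SE was the log2 fold change divided by the root of F. The common coefficient of variation was 0.446, and 0.214 with the replicate block. No library was a copy of another in its own group (chi-square per gene 20.2 to 62.9), and libraries of different groups were not compared in this way. Replicate numbers paired the samples by the data, since deviations from group means correlated at 0.227 to 0.646 for the 9 pairs with the same number and at -0.499 to 0.0345 for the 18 others. Blocked counts therefore stand beside the counts of members, families, lists and markers with TNP-LPS, and blocked p-values beside named genes whose call they change. DESeq2 1.42.0, other factors, other filters, the 2 groups alone and leaving out libraries were alternatives, and blocked fits without 1 library were added after seeing the data. The fit without the block was also run on simulated counts. These held no effect of the replicate number, so that run cannot speak to the pairing seen here. Figures used Python 3.11.15 and matplotlib 3.10.9.

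Members, families and lists were chosen with earlier results of these data known, so no list was tested as a set. Named are up to 10 called members per direction with TNP-LPS (at least 1 CPM), up to 5 in the other comparisons, the smallest p and the most counted gene per family, up to 4 blocked calls per direction shared by both antigens, and up to 2 genes per list. Others are named as the rest of a small count, or as copies of a named gene, after their values were seen. Precision covers counting and library spread only.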

Additional observations from a re-analysis of the deposited data

How the results depend on the processing

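Higher and lower calls of members under other settings were as follows. With the replicate block they were 24 and 45 for TNP-LPS against control, 9 and 10 for TNP-KLH against control, and 6 and 17 for TNP-LPS against TNP-KLH. DESeq2 gave 14 and 30, 5 and 8, and 1 and 8. With only the 2 groups compared in the fit they were 6 and 17, 0 and 0, and 0 and 0. Without the 3 libraries numbered 2 they were 4 and 10, 0 and 0, and 0 and 0. For these smaller fits calls over all genes are not given here. The fewer calls, and the counts of 0, can therefore not be read as particular to the members. Leaving out 1 library at a time gave 5 to 9 higher and 15 to 24 lower for TNP-LPS against control, 0 higher and 0 to 1 lower for TNP-KLH against control, and 0 to 1 higher and 0 to 4 lower for TNP-LPS against TNP-KLH. Over all genes, the same fits gave 2404 to 2913 higher and 1238 to 1885 lower for TNP-LPS against control. DESeq2 size factors, upper quartile factors, no filter and filterByExpr left the 6 counts of members within 1.5 times. The cause of the differences was not tested. Of the values of named genes, 1241 kept their direction and side of the threshold, 157 lost and 63 gained a call, and 1 changed sign, the uncalled MGAT2-type gene GSONMG00055994001 (-0.018, adjusted p = 0.967, without TNP-LPS replicate 1, and up to 0.31 without TNP-LPS replicate 2). Counts by family and list kept within 1.5 times in 441 cases and moved in 137. Members with few reads limit what can be seen, since 71 had under 100 counts over 9 libraries.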
